A study of Mus musculus with 3 samples.

Results

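DNA methylation enzymes and readers were examined in a map of accessible chromatin from the mouse uterus. The set has 9 genes: the methyltransferases Dnmt1, Dnmt3a and Dnmt3b, the targeting protein Uhrf1, the dioxygenases Tet1, Tet2 and Tet3, and the methyl-CpG readers Mbd1 and Mbd2. Their peaks were taken by position, as every peak that overlaps the span of one of the 9 genes or the 10 kb on either side. This gave 14 of the 12413 peaks in the list, at 9 of 21523 protein-coding genes, and the rule for the peaks used no measured value, although the genes were chosen with earlier results of these data known. The map came from FAIRE-seq, in which crosslinked chromatin is extracted with phenol-chloroform so that DNA free of nucleosomes is kept. The samples were 3 whole uteri (replicates 1 to 3) of untreated, wild-type C57BL/6J females of 6 to 10 weeks, taken on gestation day 4, when blastocysts lie in the uterus. All 3 form 1 group, with no other genotype, treatment or time. Because the single peak list is not split by mouse, the values have no error between animals, and no difference was tested. Library depth is unknown, and luminal and glandular epithelium, stroma, muscle, vessels and immune cells were mixed in each uterus.

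DNA methylation in mammals sits mostly on cytosines of CpG dinucleotides. Dnmt3a and Dnmt3b place new methyl groups, and Dnmt1 copies the pattern onto the new strand after replication, guided by Uhrf1, which binds hemimethylated sites. The Tet enzymes oxidise methylcytosine as a step towards its removal. Mbd1 and Mbd2 bind methylated CpG and bring in repressor complexes. Promoters rich in CpG usually stay unmethylated, and the uterine epithelium and stroma divide in waves under ovarian hormones around implantation.

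The upstream sequences of 7 start sites, 1 for each gene with a start in the RefSeq promoter table, show how unlike these promoters are in CpG content. Each is the 250 bases before the start, written 5′ to 3′ in the direction of transcription, from RefSeq with the build GRCm38.p6, and CpG dinucleotides are in capitals. Starts are numbered along each gene in the direction of transcription. The start shown for a gene is the one nearest to the summit of its strongest own peak, except that Tet1 has no peak.
Tet3 start 1 (chr6:83441679-83441928, minus strand): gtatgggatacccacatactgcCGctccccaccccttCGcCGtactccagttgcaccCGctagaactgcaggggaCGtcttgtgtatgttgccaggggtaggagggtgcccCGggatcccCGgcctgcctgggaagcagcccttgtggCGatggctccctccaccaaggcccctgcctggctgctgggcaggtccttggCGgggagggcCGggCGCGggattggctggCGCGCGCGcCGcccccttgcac
Uhrf1 start 2 (chr17:56304063-56304312, plus strand): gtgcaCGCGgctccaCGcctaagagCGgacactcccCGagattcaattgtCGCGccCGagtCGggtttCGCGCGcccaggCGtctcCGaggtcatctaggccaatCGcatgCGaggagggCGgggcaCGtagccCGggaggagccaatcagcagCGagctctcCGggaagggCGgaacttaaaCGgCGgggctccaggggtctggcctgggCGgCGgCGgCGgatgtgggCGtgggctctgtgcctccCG
Dnmt3b start 1 (chr2:153649199-153649448, plus strand): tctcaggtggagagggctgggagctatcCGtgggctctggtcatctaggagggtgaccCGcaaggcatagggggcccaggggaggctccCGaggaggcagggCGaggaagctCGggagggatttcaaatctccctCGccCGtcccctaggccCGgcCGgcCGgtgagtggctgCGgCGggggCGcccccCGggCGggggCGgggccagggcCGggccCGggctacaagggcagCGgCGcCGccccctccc
Dnmt3a start 1 (chr12:3806730-3806979, plus strand): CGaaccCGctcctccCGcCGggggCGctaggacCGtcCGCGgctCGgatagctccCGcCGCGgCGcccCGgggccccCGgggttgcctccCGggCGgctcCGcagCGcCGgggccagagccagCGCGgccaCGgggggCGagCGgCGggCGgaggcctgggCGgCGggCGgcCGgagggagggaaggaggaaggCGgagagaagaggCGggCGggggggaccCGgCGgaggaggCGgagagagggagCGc
Tet2 start 1 (chr3:133544391-133544640, minus strand): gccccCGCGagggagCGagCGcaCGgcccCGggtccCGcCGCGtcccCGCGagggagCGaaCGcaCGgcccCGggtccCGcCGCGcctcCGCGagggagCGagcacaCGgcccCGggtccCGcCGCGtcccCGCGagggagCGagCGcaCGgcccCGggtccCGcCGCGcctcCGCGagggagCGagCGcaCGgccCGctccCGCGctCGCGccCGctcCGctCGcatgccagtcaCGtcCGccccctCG
Dnmt1 start 2 (chr9:20952980-20953229, minus strand): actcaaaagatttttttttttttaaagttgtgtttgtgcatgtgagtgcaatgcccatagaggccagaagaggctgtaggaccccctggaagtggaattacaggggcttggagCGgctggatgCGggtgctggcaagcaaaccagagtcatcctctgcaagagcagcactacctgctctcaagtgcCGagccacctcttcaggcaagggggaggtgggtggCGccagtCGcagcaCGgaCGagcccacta
Tet1 start 1 (chr10:62887325-62887574, minus strand): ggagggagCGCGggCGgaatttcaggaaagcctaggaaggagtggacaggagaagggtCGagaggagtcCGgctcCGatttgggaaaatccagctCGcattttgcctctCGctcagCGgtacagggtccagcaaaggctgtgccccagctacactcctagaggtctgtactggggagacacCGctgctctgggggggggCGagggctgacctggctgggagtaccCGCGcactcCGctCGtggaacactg

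The printed stretch held 51 CpG at Tet2, 38 at Dnmt3a, 30 at Uhrf1, 21 at Dnmt3b, 17 at Tet3, 15 at Tet1 and 7 at Dnmt1. The low place of Dnmt1 depends on the start shown. Its start 3, under the same peak but not printed, held 26 CpG in the 250 bases before it. The Tet2 stretch also repeats itself. At a shift of 42 bases, 175 of the 258 bases compared in its 300-base window (67.8%) matched, against a median best match of 33.8% over 21045 starts of protein-coding genes at shifts of 20 to 100 bases. Only 10 of those starts (0.0475%), Tet2 included, matched themselves as well.

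Of the 9 genes, 8 had at least 1 peak, and Tet1 had none. Over all protein-coding genes 57.6% had a peak in the same kind of window. Among the 9553 genes as long as the members (15.1 to 113 kb) the share was 66.7%. An end of a gene here is either limit of its annotated span, whichever way the gene is read. At annotated gene ends, taken as 1 kb on either side of each end, 6 of the 9 genes had a peak (Dnmt3b, Uhrf1, Tet2, Tet3, Mbd1 and Mbd2). The share of all protein-coding genes was 44.5%. The 4 peaks of Dnmt3a and 1 of the 2 counted for Dnmt1 lay further inside, within 1 kb of starts in the annotated span. Within 1 kb of a tabled start, 6 of the 7 genes with such a start had a peak (all but Tet1), against 46.7% of 17274 protein-coding genes. With 9 members these shares are counts only.

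The authors' fold enrichment of a peak, which sets its summit against the local background, ran from 3.46 to 13.3 over the 14 peaks. Their median was 6.29, against 5.80 over all other peaks of the list. The peaks were spread over the range of the list: 2 lay in its highest 5% and 4 in its lowest 20%. Their median width was 472 bp, against 427 bp over the whole list.

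**Figure D1:**
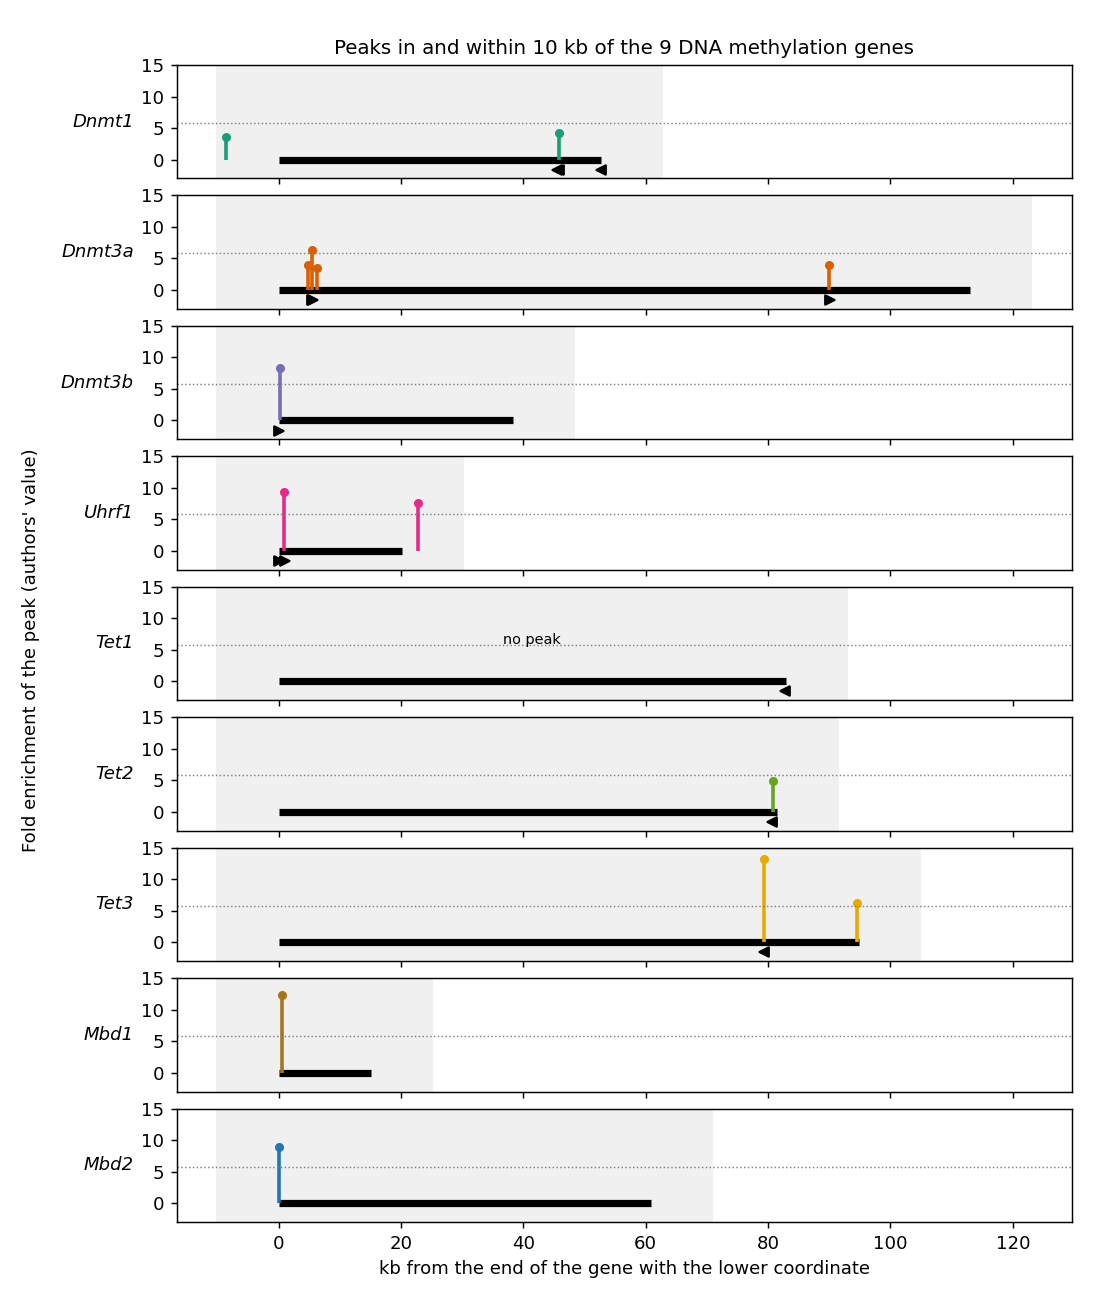
Peaks at the 9 genes. The x axis is the distance in kb from the end of the gene with the lower coordinate, the y axis the authors' fold enrichment of each peak. Black bars are gene spans, grey areas the 10 kb flanks, arrowheads tabled starts, and the dotted line the list median of 5.80. Tet1 has no peak, and the highest peak, at 13.3-fold, lies at the tabled Tet3 start.

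The replication-coupled methyltransferase Dnmt1 had a weak peak at an inner start and none at its outermost one. Its own peak (chromosome 9, 20952571 to 20953075) was 505 bp wide, with a pileup of 33, a fold enrichment of 4.18 and a −log10 q of 9.52. Only 20.4% of the list had a lower fold. Its summit fell exactly on start 2, at position 20952979, and the peak also covered start 3, which lies 356 bases further along. Of the 12065 peaks on chromosomes with tabled starts, 36 (0.298%) had their summit exactly on a protein-coding start. Summits within 10 bases of one made up 5.06%, and those within 100 bases 36.1%. Start 1, 6909 bp before start 2, had no peak and 2 CpG in its 300-base window, while starts 2 and 3 had 12 and 33. Dnmt1 is known to use an oocyte promoter that differs from its somatic one, but the table does not name which start is which.

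The other peak counted for Dnmt1 belongs by position to a neighbour. It lay 8497 bp beyond the gene (chromosome 9, 20898467 to 20898709, 3.64-fold), with its summit 25 bp from the end of Eif3g, which encodes a translation initiation factor subunit. This was the farthest peak that the 10 kb limit still took in. The nearest peaks left out lay 11945 bp from Tet1, at Ccar1 (5.95-fold), and 12733 bp from Tet3, at Bola3 (10.8-fold).

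Uhrf1, the partner that brings Dnmt1 to hemimethylated DNA, had a stronger peak than Dnmt1. The peak (chromosome 17, 56304043 to 56304445) had a pileup of 100, a fold enrichment of 9.40 and a −log10 q of 60.2, and 87.0% of the list was lower. It covered all 300 bases of the window of start 2, with its summit 81 bases before that start. No peak overlapped the window of start 1, 976 bases upstream, which held 12 CpG against 33 at start 2. A further peak within 10 kb (chromosome 17, 56325681 to 56326399, 7.66-fold) had its summit 107 bp from an end of Kdm4b, a histone demethylase gene, and 2591 bp from the end of Uhrf1.

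Among the de novo methyltransferases, Dnmt3a had a central peak above the list median fold of 5.80, with lower peaks beside and beyond it. Dnmt3b had a single peak of higher fold but similar pileup. Dnmt3a, the longest member at 113 kb, had 4 peaks. That number was reached by 1.2% of all protein-coding genes and by 1.2% of those in the members' length range, which holds no longer gene. The central peak (chromosome 12, 3806613 to 3807122) reached a pileup of 80 and 6.35-fold, with its summit 48 bases before start 1. Smaller peaks flanked it at 3806230 to 3806457 (3.92-fold) and 3807712 to 3807928 (3.46-fold), the last of the minimum width in the list, 217 bp. These 3 shared a local background of 11.7 to 11.8, higher than that of about 90% of the list. The fourth peak (3891418 to 3891650, 4.04-fold, pileup 35) lay far downstream, with its summit 217 bases before start 3, which is 84764 bases after start 1. Dnmt3a is known to make a shorter protein from an internal promoter, best studied in embryonic stem and germ cells. The predicted long non-coding RNA gene Gm31623 spans that peak as well, but its nearest end was 3159 bp from the summit.

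Dnmt3b had 1 peak (chromosome 2, 153649386 to 153649846), with a pileup of 78, a fold enrichment of 8.29 and a −log10 q of 43.3. In the list 79.0% of peaks were lower. Its summit lay 193 bases after the tabled start, so this peak sat on the gene side of the start, whereas the own peaks of Dnmt1, Uhrf1, Tet2 and Tet3 nearest to a start had their summits on it or before it.

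**Figure D2:**
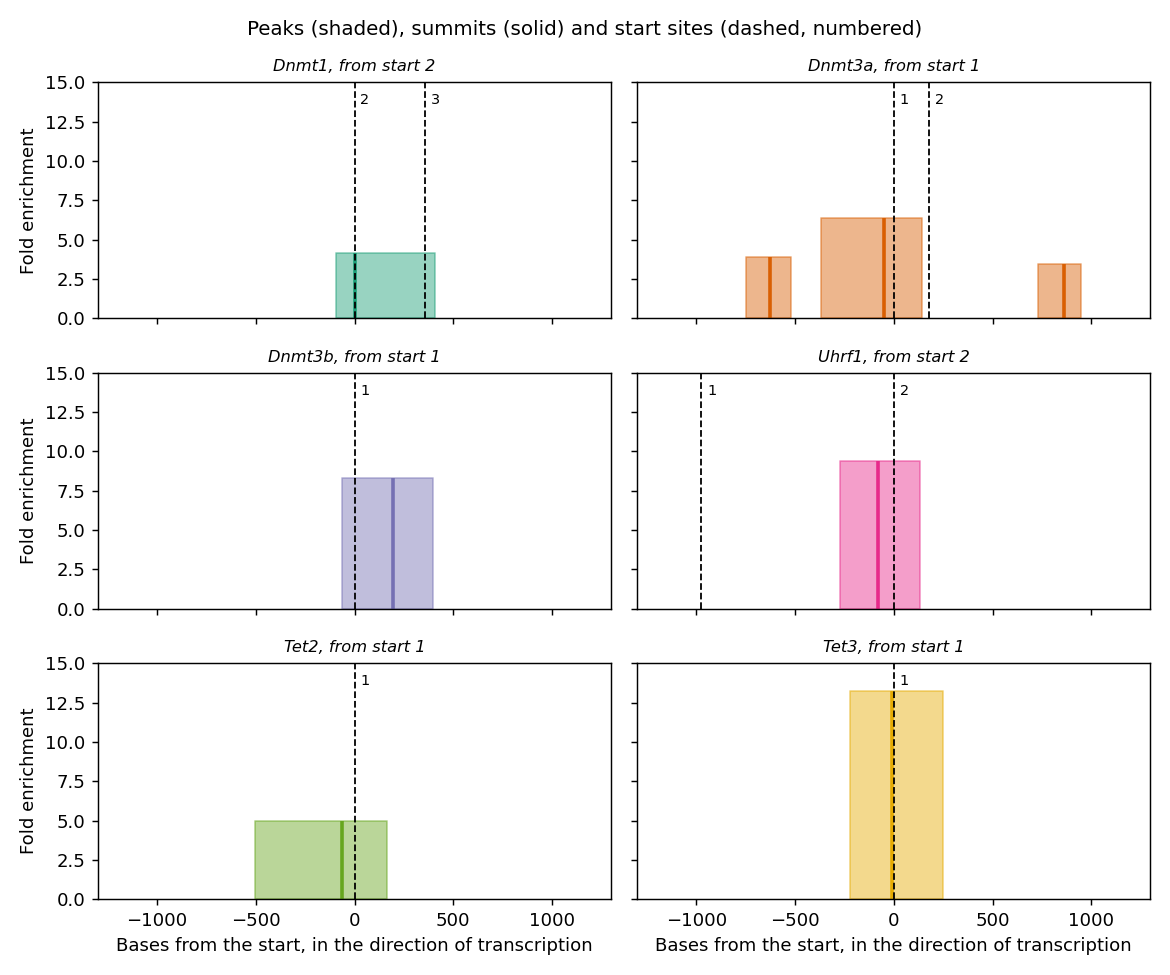
Peaks around the starts of 6 genes. The x axis is the distance in bases from the named start in the direction of transcription, the y axis the authors' fold enrichment. Shaded blocks are peaks, solid lines summits and dashed lines numbered starts. The Dnmt1 summit lies on start 2 and the Tet3 summit 7 bases before start 1, and Dnmt3a has 3 separate peaks around starts 1 and 2.

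The Tet genes covered the whole range, from no peak at Tet1 to the strongest peak of the set at Tet3. The strongest Tet3 peak (chromosome 6, 83441428 to 83441899) had a pileup of 163, a fold enrichment of 13.3 and a −log10 q of 119.9. It ranked 117 among 12413 peaks. Only 151 of 21523 protein-coding genes (0.702%) had a peak as strong in the span plus 10 kb. Its summit was 7 bases before the tabled start, 15523 bp inside the annotated span, and 70 bp from an end of the non-coding RNA gene B230319C09Rik, so the peak may belong to either gene. A second Tet3 peak (83456398 to 83457133, 6.23-fold, pileup 70, −log10 q 30.7) lay 343 bp from the outer end of the span. Tet3 is known to make isoforms with and without a CpG-binding CXXC domain from different promoters.

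Tet2 had 1 wide and low peak (chromosome 3, 133544226 to 133544894), 669 bp across, wider than 83.7% of the list. Its pileup was 56, its fold enrichment 4.95 and its −log10 q 19.6, and 35.9% of peaks had a lower fold. The summit lay 62 bases before the start, within the stretch printed above. The next peak outside the window was 153030 bp away, the longest such distance in the set.

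Tet1, which is best known from embryonic stem cells and germ cells, lay in a stretch of 128 kb without a peak. Stretches at least this long made up 30.8% of the 12393 between adjacent peaks, and the median was 61.8 kb. Tet1 spans 82.9 kb and was described here as the member without a peak within 10 kb. Its stretch therefore had to exceed that median, and the length is a description only. The nearest peaks to Tet1 on either side lay close to ends of other coding genes. Nearby genes without a peak were not counted. The peak at Ccar1, 42 bp from its end, reached 5.95-fold with a pileup of 68. On the other side the peak at Slc25a16, a mitochondrial carrier gene, reached 8.34-fold with a pileup of 100, 40 bp from its end. Next to it, the peak at Dna2, a nuclease and helicase of DNA replication, reached 9.62-fold, 57 bp from the end.

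Both readers had strong peaks close to an annotated end. Mbd1 (chromosome 18, 74267903 to 74268374) had a pileup of 98, a fold enrichment of 12.4 and a −log10 q of 71.0, with its summit 487 bp from the lower-coordinate end. It ranked 235 in the list. Mbd2 (chromosome 18, 70568067 to 70568666) had a pileup of 100, a fold enrichment of 8.95 and a −log10 q of 58.1, with its summit 75 bp from the lower-coordinate end. That summit also lay 9 bp from an end of the predicted non-coding gene Gm31671, so the peak may belong to either gene.

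The order of the genes depended on whether the summit signal or its ratio to the background was read. Mbd1, Mbd2 and Uhrf1 had nearly the same pileup (98, 100 and 100), yet Mbd1 led them in fold enrichment. Its local background, computed as (pileup + 1) / fold − 1, was 7.002, equal to the lowest of the list at this precision, whereas it was 10.3 at Mbd2 and 9.74 at Uhrf1. The Mbd1 value lies on a floor shared by many peaks: 9.81% of the list lay lower, also at 7.002 when rounded. The background also differed between Dnmt1 (7.14) and Tet2 (10.52), whose fold enrichments were 4.18 and 4.95 with pileups of 33 and 56. Tet3 led on both scales.

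**Figure D3:**
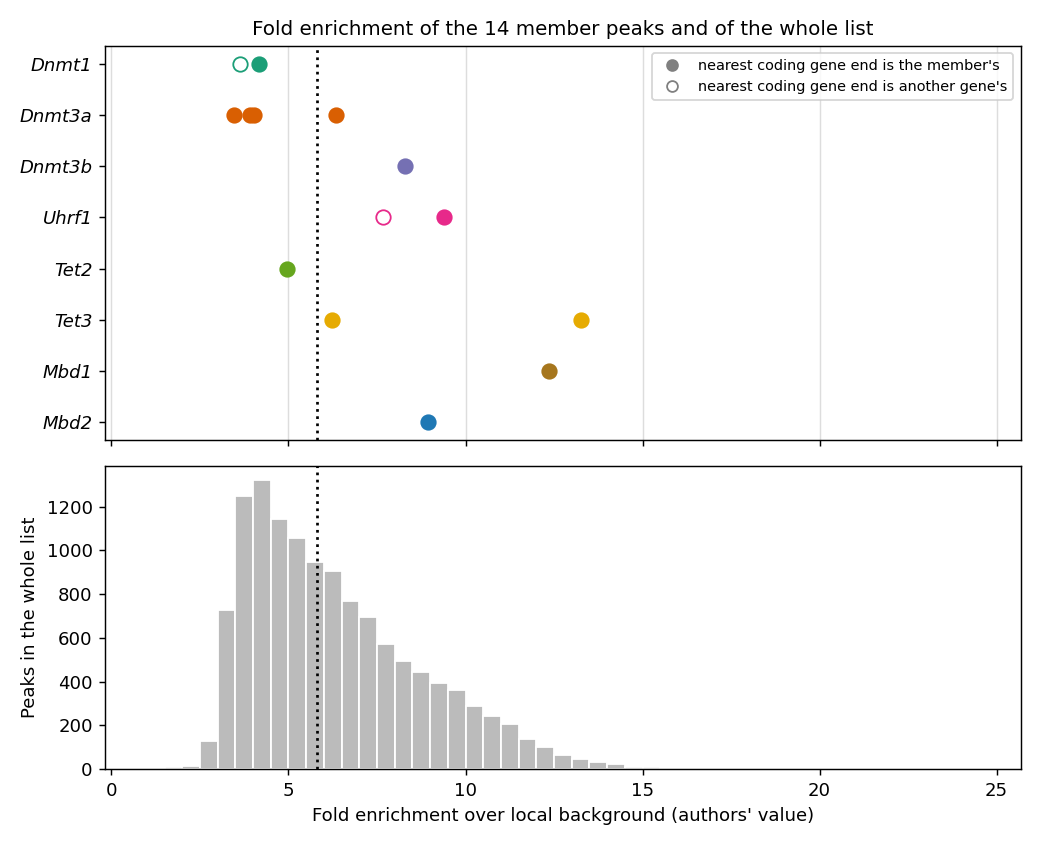
Fold enrichment of the 14 peaks by gene (upper panel) and of all 12413 peaks (lower panel, number of peaks per bin). The x axis is the authors' fold enrichment, and the dotted line is the list median of 5.80. Open circles are the 2 peaks whose nearest coding gene end belongs to Eif3g or Kdm4b, and only the strongest Tet3 peak and the Mbd1 peak pass 12-fold.

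Starts rich in CpG had a peak far more often than CpG-poor ones over the whole list, and the members were set beside that. Over all 21045 starts of protein-coding genes, 38.4% had a peak overlapping the window from 250 bases before to 50 bases after the start. The share was 0.206% for starts with 0 to 4 CpG in the window, 4.16% for 5 to 9, 24.9% for 10 to 14 and 51% for 15 to 19 (95% Wilson interval 49.0 to 53.1). It reached 74.4% for 20 to 29 CpG, 90.6% for 30 to 39 and 92% for 40 or more. Starts of 1 gene share a neighbourhood, so they are not independent, and the intervals cover counting error only.

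Among the 12 tabled starts of the members, more CpG did not always go with a stronger peak. Of the 9 starts with 15 or more CpG, 8 overlapped a peak, the exception being Tet1 with 17. Over all starts that share was 51% at 15 to 19 CpG, the class of Tet1, and rose to 92% at 40 or more. Of the 3 with fewer than 15, 1 overlapped a peak, the Dnmt1 start 2 with 12. Over all starts 24.9% did so at 10 to 14 CpG, and a smaller share below that. The overlapping starts are not separate cases: Dnmt1 starts 2 and 3 share 1 peak, as do Dnmt3a starts 1 and 2. The Tet2 window held 57 CpG, more than 99.8% of all starts, yet of the 994 starts with 40 or more CpG and a peak, 884 (88.9%) had one at least as strong. The Tet3 window held 22 CpG, and of the 3243 starts with 20 to 29 CpG and a peak, 27 (0.833%) had one at least as strong as that of Tet3. Dnmt1 start 3, with 33 CpG, was also low, although its peak is the one with its summit on start 2, 356 bases upstream. Of the 1994 starts in the CpG class of start 3 with a peak, 94% had one at least as strong. Uhrf1 start 2, in the same class, was exceeded or equalled by 28.7%, and Dnmt3b by 43%.

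**Figure D4:**
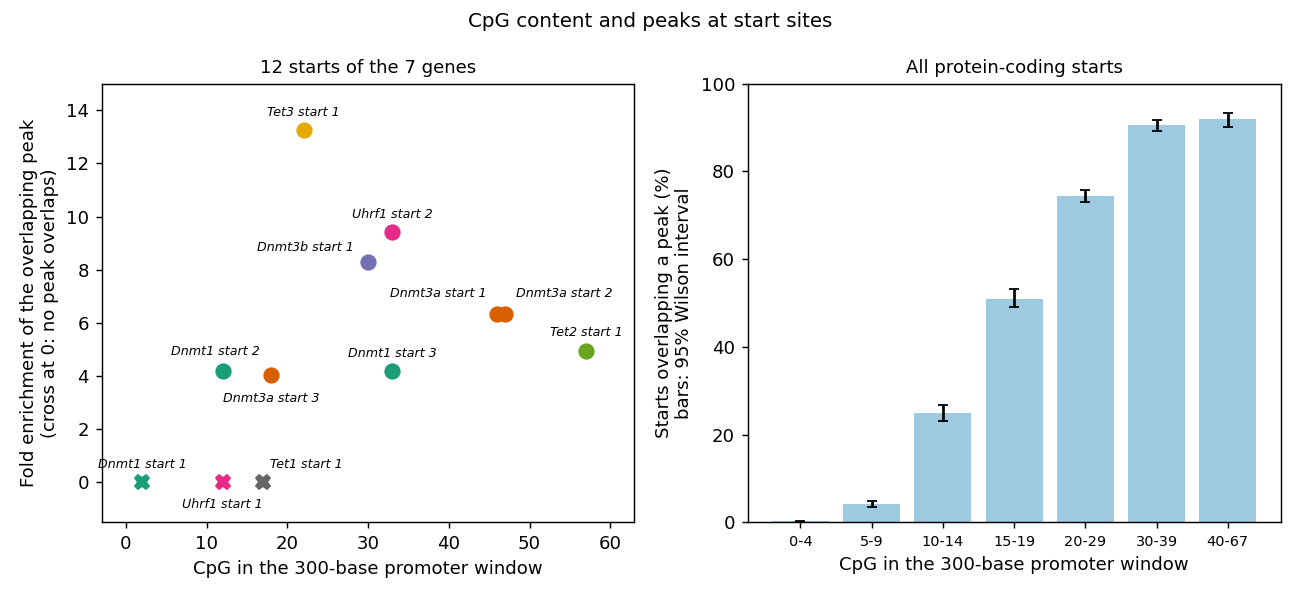
CpG content at start sites. Left, the 12 tabled starts of 7 genes, with the number of CpG in the 300-base window on the x axis and the fold enrichment of the overlapping peak on the y axis; crosses at 0 mark no overlapping peak. Right, the percentage of all protein-coding starts whose window overlaps a peak, by CpG count, with 95% Wilson intervals. Tet2 has the most CpG (57) and a 4.95-fold peak, and Tet3 has 22 CpG and a 13.3-fold peak.

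The same windows were searched on both strands for 9 short words, as a description of the letters only. GGGCGG stood for the GC box bound by Sp and Klf factors, CCAAT for the box bound by NF-Y, and CCGGAA for the core of ETS sites. CACGTG stood for the E-box, TGACGTCA for the cyclic AMP response element, and GCATGCGC for part of the NRF1 site. TTTGGCGC and TTTCGCGC stood for E2F sites and AAGATGGCG for the YY1 site. The GC box occurred at 10 of the 12 member starts, with 6 and 7 matches at Dnmt3a starts 1 and 2, whose windows overlap. It occurred at 46.7% of all starts. Every word searched except CCAAT holds a CpG, and no share over all starts given here was matched for CpG content. The CCAAT box occurred at 5 of 12, against 38.5% of all starts, with the most matches (5) at Dnmt1 start 1, which had no peak. An E2F word was present in 1.06% of all starts. Uhrf1 start 2 held TTTCGCGC from 185 bases before the start, inside its peak and in the stretch printed above. Dnmt1 start 3 held both E2F words, beginning 219 bases before and 33 bases after the start. Overlapping matches to GCATGCGC on both strands lay just after Dnmt1 starts 2 and 3, beyond the printed stretch, and 3.54% of all starts held that word. CCGGAA was present at Uhrf1 start 2 (18.9% of all starts) and CACGTG at Dnmt3a start 3 (7.91%). No member start held TGACGTCA (2.26% of all starts) or AAGATGGCG (1.84%).

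For other genes of the pathway, a list of 53 was drawn up by role, of which 52 matched a protein-coding gene; Dnmt3c is held in the table only as an older name of a pseudogene. Of these, 46 (88.5%) had a peak in the span plus 10 kb, beside 8 of the 9 members and 57.6% of all protein-coding genes. At gene ends the count was 32 (61.5%), beside 6 of 9 members and 44.5% of all. In 5 of the 32 the nearest coding gene end was that of another gene. Their median strongest gene-end fold was 6.89, against 6.33 over the 9576 protein-coding genes with a gene-end peak. The lists were not matched for gene length.

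By role, maintenance and targeting partners had a gene-end peak in 4 of 9. They were led by Hells, a chromatin remodeller needed for normal methylation (6.37-fold), Trim28, a corepressor (5.93-fold, nearest to the end of Gm31649), and Pcna, the replication clamp (5.53-fold, nearest to Cds2). Dppa3, a maternal factor that guards methylation in the zygote, and Trdmt1, a tRNA methyltransferase, had no peak within 10 kb. Genes of methyl donor supply had one in 3 of 4: Ahcy, which clears the product that inhibits methyltransferases (10.2-fold), Mat2a, which makes S-adenosylmethionine (5.62-fold), and Mtr, methionine synthase (4.25-fold).

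Among oxidation partners and base excision repair genes, 7 of 14 had a peak at an end. Tdg, the glycosylase that removes oxidised methylcytosine, reached 11.4-fold (chromosome 10, 82629639 to 82630093), its summit 48 bp from the end. Xrcc1, a repair scaffold, reached 10.9-fold, and Gadd45a, a stress-response gene linked to demethylation, 8.38-fold. Neil1, a repair glycosylase, and Ogt, a sugar transferase that binds Tet proteins, had no peak within 10 kb.

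The role group of other methyl-CpG readers takes in Mbd and Zbtb genes by family, and whether each binds methylated CpG was not examined. It had a gene-end peak in 4 of 7, led by Mbd3 (8.92-fold), Mbd5 (8.38-fold) and Zbtb33, which encodes Kaiso (8.27-fold). Mbd6 had a 10.7-fold peak in the span plus 10 kb but none at an end. The gene-end peak of Mbd3 was close to that of Mbd2 (8.95-fold), and all gene-end peaks of this group lay below that of Mbd1 (12.4-fold). CXXC proteins, which bind unmethylated CpG, had one in 5 of 7, led by Cxxc5 (9.65-fold), the histone methyltransferase Kmt2b (8.55-fold) and its relative Kmt2a (5.23-fold), while Cxxc4, a partner of Tet2, had none within 10 kb. The NuRD complex, a deacetylase and remodeller that Mbd2 and Mbd3 join, had one in 9 of 11. Hdac1 (9.69-fold), Mta1 (7.18-fold) and Rbbp4 (7.10-fold) led it, and Gatad2b had no peak within 10 kb.

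**Figure D5:**
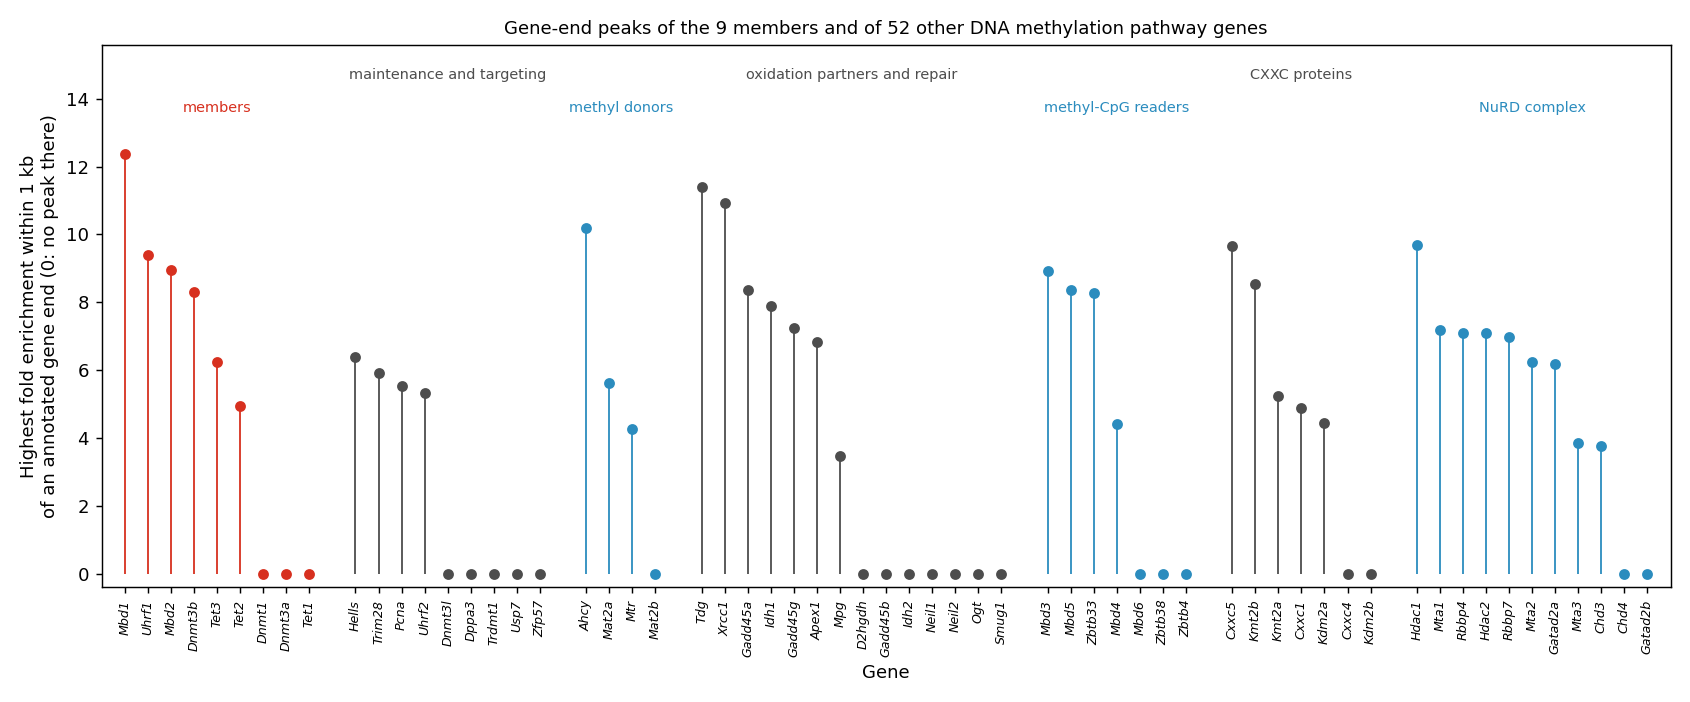
Gene-end peaks by role. The x axis lists the 9 members and 52 other pathway genes in their role groups, and the y axis gives the highest fold enrichment (authors' value) of a peak within 1 kb of an annotated gene end, with 0 where there is none. Mbd1 at 12.4-fold is above every other gene shown, followed by Tdg at 11.4-fold; the inner starts of Dnmt1, Dnmt3a and Tet3 are not gene ends and are not counted here.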

How the data were processed

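FAIRE DNA of 3 uteri was sequenced, and 1 peak list with no sample named was analysed. The labels' protocols give 100 mg of frozen uterus, fixed for 9 min in 1% formaldehyde and sheared to about 300 bp. FastQC, Bowtie2, HOMER and MACS2 and the build GRCm38.p5 are named in the submitters' processing notes, without tool versions. No source used here gives the threshold, any input control or any pooling. The deposited values used, per the file headers, are a pileup signal, a fold enrichment (ratio) and a −log10 q for each peak, and they served only to describe and rank peaks.

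Overlap by at least 1 base was counted with pandas 2.3.3 and numpy 2.4.6 after testing on simulated peaks. Genes came from RefSeq (GRCm38.p6, whose chromosome coordinates are those of p5), used for names and neighbours; 340 genes with a start below 3 Mb were left out. Starts and promoter sequences came from a RefSeq table, which matched 7 of the 9 genes. The 6 unnamed columns held no values. Summit distances carry the strand where the table gives it. No test between samples was possible, since no value belongs to 1 mouse. Of the pathway list, 3 genes are not reported here and enter no count of that list. The members and gene lists were chosen with earlier results of these data known. All 9 members are named. Of each role group, up to 3 genes by gene-end fold and up to 2 without a peak nearby are named. Mbd6, Mat2b, Kdm2b and the neighbours of Tet1 and Tet3 were added after their values were seen.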

Additional observations from a re-analysis of the deposited data

How the results depend on the processing

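With flanks of 0, 5 and 50 kb in place of 10 kb, 8, 8 and 9 members had a peak, and 48.8%, 54.2% and 70.8% of protein-coding genes. The number of member peaks was 12, 13 and 30. Among the 6206 peaks with the highest fold, 6 members kept a peak (Dnmt1, Tet1 and Tet2 had none), with 8 peaks, against 36.2% of protein-coding genes. The 6206 with the highest −log10 q left the same 6 members and 8 peaks, against 35.8%. At gene ends, windows of 500 bases, 2 kb and 5 kb gave 5, 6 and 7 members, against 41.5%, 47.7% and 51.9% of protein-coding genes. The stricter lists gave 5 members each there, against 26.2% by fold and 26.0% by −log10 q.

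At tabled starts, 6 of 7 genes had a peak in each of these windows, against 45.6%, 47.7% and 49.7%; these alternatives at starts were chosen after seeing the data. The stricter lists gave 4 of 7 each there, against 28.1% by fold and 27.9% by −log10 q. The median fold of the member peaks was 8.62 over the 6 at annotated gene ends, a count without the Dnmt1 and Dnmt3a peaks and without the strongest Tet3 peak. Taking the summit in place of any overlap, or keeping the genes with a start below 3 Mb (also added), moved no member count. Counting only peaks whose nearest coding gene end belongs to the member left 12. No mouse could be left out in turn, since the list names no sample.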
